A study of Mus musculus with 2 samples.

Results

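The genes described here encode enzymes of the pentose phosphate pathway and of NADPH supply. They are 10 of the 44291 genes in the files, namely G6pdx, Pgls and Pgd of the oxidative arm, Rpia, Rpe, Tkt and Taldo1 of the non-oxidative arm, and Me1, Idh1 and Nnt as the other NADPH enzymes. The genes were chosen by name, with the values of the comparison described here already known, so that every count over them is a description. Nnt has 2 entries in the files, which makes 11 entries for the 10 genes. Coordinates are of mm10 (GRCm38).

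The pentose phosphate pathway and a few other dehydrogenases supply cells with NADPH, the reduced cofactor used for building fatty acids and sterols and for keeping glutathione and thioredoxin reduced. The oxidative arm of the pathway takes glucose phosphate to ribulose phosphate and makes NADPH on the way. The non-oxidative arm rearranges sugar phosphates between the pathway, glycolysis and nucleotide synthesis, and makes no NADPH itself. Malic enzyme and the cytosolic isocitrate dehydrogenase are further sources, which fat-forming cells are known to use. A transhydrogenase of the mitochondrial inner membrane uses the proton gradient to make NADPH inside mitochondria.

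RNA-seq was performed on primary fibro-adipogenic progenitors (FAPs), mesenchymal cells of skeletal muscle that can become fibroblasts or fat cells. Wild-type (WT) mouse cells received platelet-rich plasma (PRP) in the first group and vehicle in the second, the control. Both groups were exposed to adipogenic induction medium, in which serum at 20% was combined with insulin at 10 μg/ml, dexamethasone at 0.25 μM and IBMX at 0.5 mM. Per the study's methods, FAPs were sorted by flow cytometry from hind limb muscles of young adult C57BL/6 mice. Its text names exosomes from the PRP of young human donors (Y-PRP-exos) as the treatment of the sequenced FAPs, whereas the labels name PRP. The methods allow at most 3 days of induction, and neither the day on which the sequenced cells were taken nor the number of animals is given in the sources used here. There is 1 library per group, so each difference lies between 2 libraries, has no replicate check and is given without a p-value.

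Values are FPKM, which are reads scaled to exon length and to a total of reads per library. From the steps of the values, that total was 40120843 with PRP and 34139741 in the control. What the authors counted in it is not given in the sources used here. The mitochondrial genome took 2.06% of all FPKM with PRP and 3.70% in the control. Of 10 FAP markers 9 had a mean FPKM of at least 1, and all 9 were lower with PRP. Of all 13401 genes with such a mean, 50.9% were higher with PRP. The list of FAP markers summed to 404.4 FPKM with PRP against 658.7 FPKM in the control. The list of 10 adipocyte markers summed to 144.3 against 155.3 FPKM, and 7 of them reached a mean FPKM of 1, of which 4 were higher and 3 lower with PRP. Markers of macrophages and leukocytes summed to 11.4 against 11.3 FPKM. Only 2 of them reached a mean FPKM of 1, Cd68, higher with PRP (ratio 1.98), and Lyz2, lower (ratio 0.648). Myogenic markers summed to 58.7 against 58.1 FPKM with Pax7 and Myog at 0 in both. Of this list 4 genes reached a mean FPKM of 1. Acta1 was higher with PRP (ratio 1.36, 15.1 against 11.1 FPKM). The 3 lower were Tnnt3 (ratio 0.927, 36.7 against 39.6 FPKM), Ckm (ratio 0.957) and Des (ratio 0.859). Endothelial markers summed to 9.59 against 5.49 FPKM. Of these 8 genes 2 reached a mean FPKM of 1, Kdr (ratio 2.82) and Tek (ratio 1.33), both higher with PRP, and Cldn5 was at 0 in both. Of 12 erythroid and platelet markers none reached a mean FPKM of 1, and Hba-a2, Hbb-bt, Ppbp and Gp9 were at 0 in both. The part of these markers in the values below was not tested.

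The level of each enzyme gene was then compared between the libraries. Taldo1 had 54.7 FPKM with PRP and 17.5 FPKM in the control, a ratio of 3.12. The other 9 genes kept within a narrow band, from a log2 fold change of -0.38 for Rpe to 0.33 for Pgd. The log2 fold change is log2(PRP FPKM + 1) minus log2(control FPKM + 1), and it shrinks the fold of genes at low levels. In bulk RNA, fewer cells of a type and less RNA per cell cannot be told apart.

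All 10 genes reached a mean of 1 FPKM, the level from which genes were compared. On the log2 scale 5 were higher and 5 lower with PRP, where 50.9% of all 13401 genes compared were higher. The median of the 10 was -0.01, and that of all genes compared was 0.01. At least 2-fold higher was 1 gene of the 10, Taldo1, against 2.00% of all genes compared. None of the 10 was at least 2-fold lower, against 0.828% of all genes. These thresholds are on the log2(FPKM + 1) scale. By the plain FPKM ratio Taldo1 was likewise the single gene past 2-fold, where 3.78% of all genes were at least 2-fold higher and 2.16% lower. A threshold of 1.5-fold called the same gene higher (6.15% of all genes) and again no gene lower (4.57% of all genes). By counting error alone, the 95% interval of the FPKM ratio lay above 1 for Pgd and Taldo1 and below 1 for Rpe, Me1 and Idh1, and it included 1 for the other 5. Among the 12369 genes with whole reads such intervals lay above 1 for 26.2% and below 1 for 26.1%. An interval that leaves out 1 was thus common among all genes, and it compares these 2 libraries and not the treatments.

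**Figure D1:**
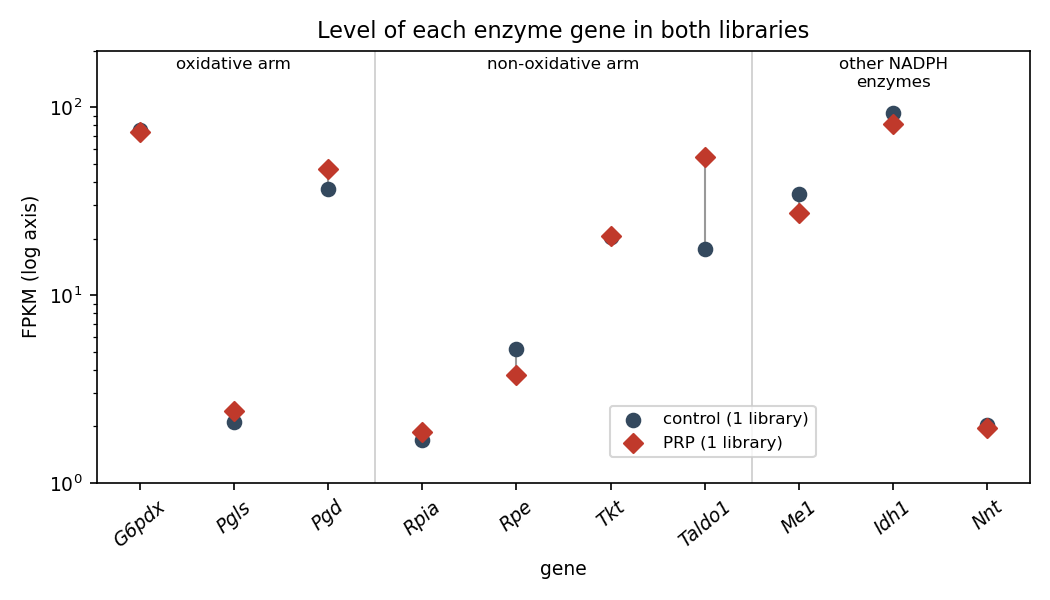
FPKM of the 10 enzyme genes on a log axis, with 1 point for the control library (circle) and 1 for the PRP library (diamond) per gene, grouped by role. Taldo1 is the gene whose points lie far apart (17.5 and 54.7 FPKM), while the points of G6pdx, Tkt and Nnt lie almost on each other.

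In the oxidative arm the entry step was level and the last step was higher. G6pdx (ENSMUSG00000031400, chromosome X, 74409483 to 74429194, minus strand) encodes glucose-6-phosphate dehydrogenase, which sets the flow into the pathway. G6pdx had 73.9 FPKM with PRP and 75.5 FPKM in the control, from 9127 and 7944 reads. The interval of its ratio of 0.978 ran from 0.937 to 1.02 and so included no change. An overlap of 418 bases, 13.6% of its exon length, with Ikbkg on the opposite strand can share reads where strand was not used in counting, which is not given in the sources used here. Ikbkg had 28.0 against 25.3 FPKM. The retrogene G6pd2, 93.2% identical to G6pdx over 2332 bases, held 12 reads with PRP and 16 in the control.

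Pgls (ENSMUSG00000031807, chromosome 8, 71592176 to 71601092, plus strand) encodes the lactonase of the second step. Its level was low in both libraries, at 2.40 FPKM with PRP and 2.10 FPKM in the control, from 363 and 270 reads. The ratio of 1.14 had an interval from 0.920 to 1.46, so a difference was not detectable at this depth. Pgls shares 776 bases (20.6% of its exon length) with Niban3 on the same strand, so the origin of part of its reads is uncertain. Niban3 had 3.55 against 2.12 FPKM.

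Pgd (ENSMUSG00000028961, chromosome 4, 149149991 to 149166771, minus strand) encodes phosphogluconate dehydrogenase, the second NADPH-making enzyme of the arm. Pgd had 46.7 FPKM with PRP against 36.9 FPKM in the control, from 12090 and 8121 reads. Their ratio was 1.27 (1.22 to 1.32), which was the next highest of the 10 after Taldo1 and stood at percentile 84.5 of all genes compared. G6pdx was thus 2.05 times the level of Pgd in the control library and 1.58 times in the PRP library. Summed over the arm, the level was 123.0 FPKM with PRP and 114.5 FPKM in the control, a ratio of 1.07.

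The non-oxidative arm held the largest and the most negative of the 10 log2 fold changes. Taldo1 (ENSMUSG00000025503, chromosome 7, 141392199 to 141402968, plus strand) encodes transaldolase, which moves a carbon unit between sugar phosphates and so links the pathway to glycolysis. Its 54.7 FPKM rested on 4763 reads in the PRP library and its 17.5 FPKM on 1299 reads in the control library. The interval of the ratio ran from 2.86 to 3.41, and the log2 fold change of 1.59 was rank 72 from the top among 13401 genes. Of 1494 genes with at least the mean level of Taldo1 over both libraries (36.1 FPKM), 17 others had a log2 fold change as high. Taldo1 reaches that level through its PRP value, so this set is not independent of the fold change. No other annotated gene overlaps the exons of Taldo1, and its processed pseudogene Gm17823 on chromosome 10, 94.8% identical over 1016 bases, held 2 reads in each library.

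Tkt (ENSMUSG00000021957, chromosome 14, 30548359 to 30574720, plus strand) encodes transketolase, the thiamine-dependent partner of transaldolase. Its level was 20.7 FPKM with PRP and 20.5 FPKM in the control, from 6100 and 5148 reads. The ratio was 1.01 (0.956 to 1.06), and this interval did not overlap that of Taldo1. By FPKM, Taldo1 stood at 0.855 of the level of Tkt in the control library and at 2.65 times that level in the PRP library. Exon lengths of 2171 bases for Taldo1 and 7355 for Tkt enter these values, and Tkt held more reads in both libraries. Which of the pair stood higher thus depends on the lengths used, whereas the change between the libraries does not. The log2 fold change of Tkt was 0.01 and changed sign under rescaling of the libraries, down to -0.02, so no direction is given for it.

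The isomerases were low, and only Rpe had an interval that left out 1. Rpia (ENSMUSG00000053604, chromosome 6, 70765720 to 70792232, minus strand) encodes ribose phosphate isomerase, which makes the ribose phosphate of nucleotides, and had 1.87 FPKM with PRP against 1.69 FPKM in the control. From 403 and 310 reads its ratio was 1.11 (0.901 to 1.39), not a detectable difference at this depth. Rpe (ENSMUSG00000026005, chromosome 1, 66700831 to 66719805, plus strand) encodes the epimerase that makes xylulose phosphate, and had 3.75 FPKM against 5.18 FPKM. From 468 and 551 reads the ratio was 0.723 (0.604 to 0.862), the lowest of the 10. Rpe overlaps Kansl1l on the opposite strand over 558 bases (17.9% of its exon length), and Kansl1l was on the other side of no change, at 4.04 against 3.55 FPKM.

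**Figure D2:**
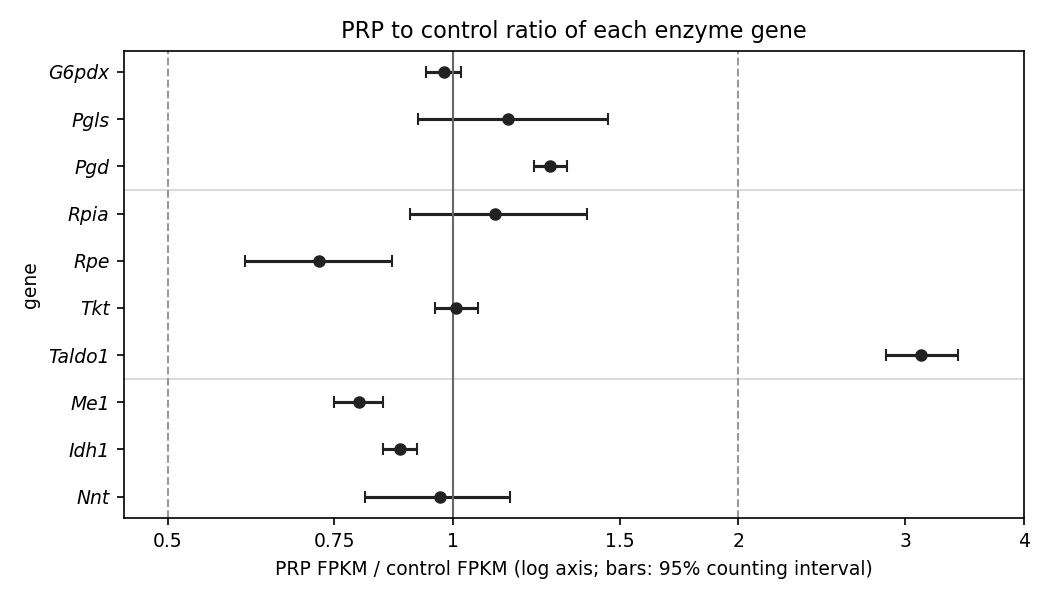
Ratio of PRP to control FPKM for each of the 10 genes on a log axis, with bars for the 95% counting interval, a solid line at no change and dashed lines at 2-fold in either direction. The interval of Taldo1 (2.86 to 3.41) lies beyond the dashed line, and those of the other 9 genes lie between the dashed lines.

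The 4 non-oxidative genes summed to 81.0 FPKM with PRP and 44.9 FPKM in the control, a ratio of 1.80. Without Taldo1 the other 3 genes of the arm summed to 26.3 against 27.4 FPKM, a ratio of 0.960. Taldo1 made up 67.5% of the arm with PRP and 39.0% in the control, while the share of Tkt was 25.5% against 45.7%. Over all 7 pentose phosphate genes Taldo1 held 26.8% against 11.0% of the summed level, and G6pdx 36.2% against 47.4%.

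**Figure D3:**
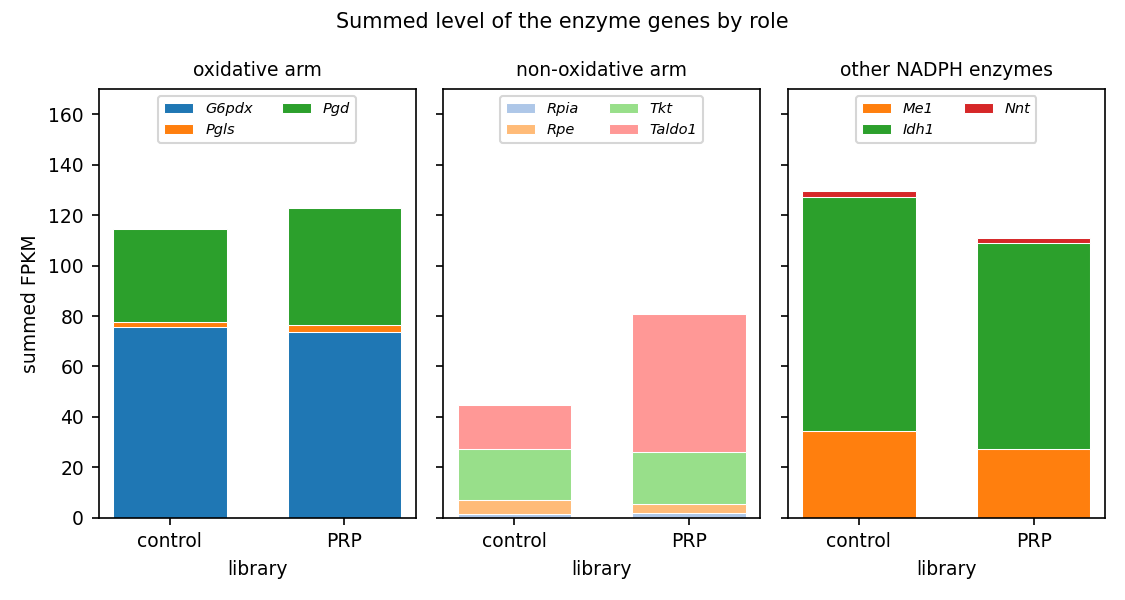
Summed FPKM of the enzyme genes in each role, with 1 bar per library and 1 colour per gene within a panel. The non-oxidative bars differ (44.9 FPKM in the control and 81.0 FPKM with PRP) through the segment of Taldo1, and the bar of the other NADPH enzymes is lower with PRP (111.0 against 129.4 FPKM).

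The start of Taldo1 is shown because this gene carried the difference. RefSeq gives 12 promoter windows, from 250 bases before to 50 bases after a gene start, for 9 of the 10 genes, with Nnt as the exception. They were searched on both strands for the antioxidant response element core TGACNNNGC, which the stress factor NRF2 binds, the sterol response element core TCACNCCAC, which SREBP factors bind, and the E-box CACGTG, which carbohydrate-responsive and MYC factors bind. No window held more than 1 match. The antioxidant core was found in 1 window each of G6pdx, Pgd and Me1, and 12.4% of 32851 RefSeq promoters hold it. Neither of the other motifs was found in a window of these genes, and they are in 1.24% and 7.15% of all promoters. The Taldo1 window had no match to any of the 3 motifs. Below are the 250 bases before the Taldo1 start (GRCm38.p6, chr7:141391910-141392159, plus strand) and the 100 bases before the G6pdx start (chrX:74428881-74428980, minus strand), 5′ to 3′, with the match to the antioxidant core in capitals, which lies on the opposite strand from 57 to 49 bases before the start.
Taldo1: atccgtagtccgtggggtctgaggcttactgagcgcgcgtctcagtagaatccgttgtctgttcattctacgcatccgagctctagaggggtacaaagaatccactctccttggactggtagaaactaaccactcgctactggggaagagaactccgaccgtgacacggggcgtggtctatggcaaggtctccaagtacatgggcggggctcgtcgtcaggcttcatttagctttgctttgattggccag
G6pdx: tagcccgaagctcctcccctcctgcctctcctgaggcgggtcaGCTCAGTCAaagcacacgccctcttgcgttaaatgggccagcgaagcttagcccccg
In Me1 the match reads TGACTCAGC and spans the start itself, and in Pgd it reads TGACATTGC just after a start that lies inside the gene. The RefSeq starts used for G6pdx and Me1 also lie inside the gene coordinates given here. The 100 bases printed for G6pdx thus fall within those coordinates and not upstream of them. Beside these matches stand FPKM ratios of 0.978 for G6pdx, 1.27 for Pgd and 0.796 for Me1. A match is a description of letters and not of binding.

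The other NADPH enzymes of the cytosol were both lower in the PRP library. Me1 (ENSMUSG00000032418, chromosome 9, 86581371 to 86695953, minus strand) encodes malic enzyme, which turns malate into pyruvate and NADPH during lipogenesis. Its level was 27.4 FPKM with PRP and 34.5 FPKM in the control, from 4233 and 4526 reads, and its ratio was 0.796 (0.749 to 0.844). Near-identical stretches lie in the pseudogene Gm7049 (98.4% over 1716 bases, 74 and 86 reads) and in Gm48795 (98.7% over 1159 bases, 76 and 72 reads), so a small part of the reads of Me1 is uncertain. Idh1 (ENSMUSG00000025950, chromosome 1, 65158616 to 65186500, minus strand) encodes the cytosolic isocitrate dehydrogenase and was the most abundant of the 10 genes in both libraries. It had 81.7 FPKM against 92.9 FPKM, from 9078 and 8790 reads, with a ratio of 0.879 (0.843 to 0.916). Both differences are larger than counting error and smaller than 1.5-fold.

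Nnt encodes the transhydrogenase of the mitochondrial inner membrane, which uses the proton gradient to pass hydride from NADH to NADP. The longer entry (ENSMUSG00000025453, chromosome 13, 119335448 to 119408997, minus strand) had 1.96 FPKM with PRP and 2.02 FPKM in the control, a ratio of 0.968 (0.807 to 1.15). The shorter entry (ENSMUSG00000116207, 119335528 to 119408952) had 4.10 and 4.25 FPKM, a ratio of 0.965 (0.807 to 1.15). These entries are not separate measurements, since all 3339 exon bases of the shorter lie within the 7037 bases of the longer. The longer held 553 and 486 reads and the shorter 549 and 484, which leaves 4 and 2 reads for the 3698 bases of the longer entry alone. The same reads were thus listed under both entries, and the level of Nnt in FPKM depends on which length is used, whereas its ratio does not. The C57BL/6J substrain is known to carry a deletion of several Nnt exons, and the mm10 assembly is of that substrain. The study's materials list C57BL/6J among its mice, and values per gene do not show which exons were read.

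Levels, which FPKM allows to be compared between genes, fell into 2 tiers. Idh1, G6pdx, Pgd, Me1, Tkt and Taldo1 lay between 17.5 and 92.9 FPKM, and Rpe, Pgls, Nnt and Rpia between 1.69 and 5.18 FPKM. In both libraries the order began with Idh1 and G6pdx and ended with Rpe, Pgls, Nnt and Rpia, taking the longer Nnt entry. Taldo1 took position 6 in the control library and position 3 in the PRP library, ahead of Pgd, Me1 and Tkt. By counting error the levels of Tkt (19.7 to 21.3 FPKM) and Taldo1 (16.2 to 18.9 FPKM) were apart in the control library. The interval of the longer Nnt entry overlapped those of Rpia and Pgls in both libraries. That of the shorter entry did not, at 3.62 to 4.60 FPKM with PRP and 3.73 to 4.82 FPKM in the control. The place of Nnt in the order thus depends on the entry. There is no spread over samples, so the order of neighbours says nothing beyond these libraries. Exon lengths of all annotated transcripts of a gene enter FPKM, from 2171 bases for Taldo1 to 7355 for Tkt, and long rare exons lower a gene's value.

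Genes around the 10 enzymes were described by lists taken from textbook pathways. Their counts of genes past 2-fold are on the log2(FPKM + 1) scale, and counts by the plain FPKM ratio are given where they differ. Further NADPH sources and related enzymes, such as folate enzymes and mitochondrial dehydrogenases, had a median log2 fold change of 0.00 over 13 genes compared. Not all of them make NADPH, since Shmt1 and Shmt2 do not. None was at least 2-fold higher, and 1 was lower by that much. That gene was Idh2, the mitochondrial counterpart of Idh1, with 8.85 against 18.7 FPKM (ratio 0.473, interval 0.422 to 0.532). Its log2 fold change lay at the threshold. By the plain ratio 1 gene was also higher, Shmt1, the cytosolic serine hydroxymethyltransferase (2.20 against 1.02 FPKM, ratio 2.16, interval 1.64 to 2.94). Of 15 genes for the entry to and exit from the pentose phosphate pathway none passed 2-fold on the log2 scale, and their median was -0.04. The extremes of that list were Prpsap2, a partner of the enzyme that activates ribose phosphate (4.80 against 3.09 FPKM, ratio 1.55, interval 1.22 to 2.00), and Pfkl, the liver phosphofructokinase (8.13 against 16.7 FPKM, ratio 0.487, interval 0.452 to 0.525), which was past 2-fold by the plain ratio.

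A further list held 15 genes that make, carry or use citrate, malate and isocitrate, the metabolites around Me1 and Idh1. Of these 11 were lower and 4 higher, where 50.9% of all genes compared were higher. None of the 15 passed 2-fold on the log2 scale, and their median was -0.15. Not all of them supply Me1 or Idh1, since the Idh3 subunits in the list use isocitrate. By the plain ratio 2 were at least 2-fold lower, Mdh1 (0.471) and Slc25a10, the mitochondrial dicarboxylate carrier (0.422, interval 0.309 to 0.565). By log2 fold change the lowest was Mdh1, the cytosolic malate dehydrogenase that supplies malate, with 7.67 against 16.3 FPKM. The highest was Mdh2, its mitochondrial counterpart, with 44.2 against 38.5 FPKM (ratio 1.15, interval 1.09 to 1.21).

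Lists made up mainly of genes that draw on NADPH were compared by use. In the list of sterol and fatty acid enzymes, most of which use NADPH, 4 of 14 genes were at least 2-fold lower, none was higher by that much, and the median was -0.87. Among them were Cyp51, Nsdhl and Sqle of sterol synthesis, with ratios of 0.390, 0.358 and 0.439. By the plain ratio 7 of the 14 were at least 2-fold lower. In the list of enzymes for redox defence, detoxification and nucleotides, most of which use NADPH, 2 of 13 genes were at least 2-fold higher. None was lower by that much, and the median was 0.05. They were Txnrd1, the cytosolic thioredoxin reductase, with 110.6 against 44.5 FPKM (ratio 2.49, interval 2.41 to 2.57), and Cbr3, a carbonyl reductase, with 13.3 against 5.84 FPKM (ratio 2.28, interval 1.87 to 2.86). Blvrb, a biliverdin reductase, passed 2-fold by the plain ratio only (2.12, interval 1.87 to 2.40). Of 12 genes of NADPH oxidases 3 had a mean FPKM of at least 1, and none was past 2-fold on the log2 scale. Their ratios ran from 0.428 for Nox4 (interval 0.346 to 0.521) to 1.01 for Cyba. By the plain ratio 1 gene, Nox4, was thus at least 2-fold lower. Ncf4 and Noxa1 were at 0 in both libraries.

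Of 17 regulators that are known to act on such genes, 1 was at least 2-fold higher and none lower, with a median of 0.14. This was Maff, a small MAF protein that pairs with NRF2 or its rivals on antioxidant response elements, with 140.1 against 68.2 FPKM (ratio 2.05, interval 1.97 to 2.14). Its relative Mafk passed 2-fold by the plain ratio only (42.8 against 21.1 FPKM, ratio 2.03, interval 1.91 to 2.16). At 1.5-fold 4 regulators were higher and 2 lower, against 6.15% and 4.57% of all genes. Beside Maff and Mafk the higher ones were Nfe2l2, which encodes NRF2, and Myc. Their ratios were 1.75 (1.67 to 1.85) and 1.79 (1.55 to 2.08). The lower ones were Srebf1, with a ratio of 0.544 (0.470 to 0.627), and Insig1, with a ratio of 0.534 (0.493 to 0.578). The background for the counts at 2-fold is the same 2.00% higher and 0.828% lower, or 3.78% and 2.16% by the plain ratio, and nothing particular to a list is drawn from it. Beside these lists the 10 enzyme genes had the highest single log2 fold change, that of Taldo1, with a median next to 0.

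**Figure D4:**
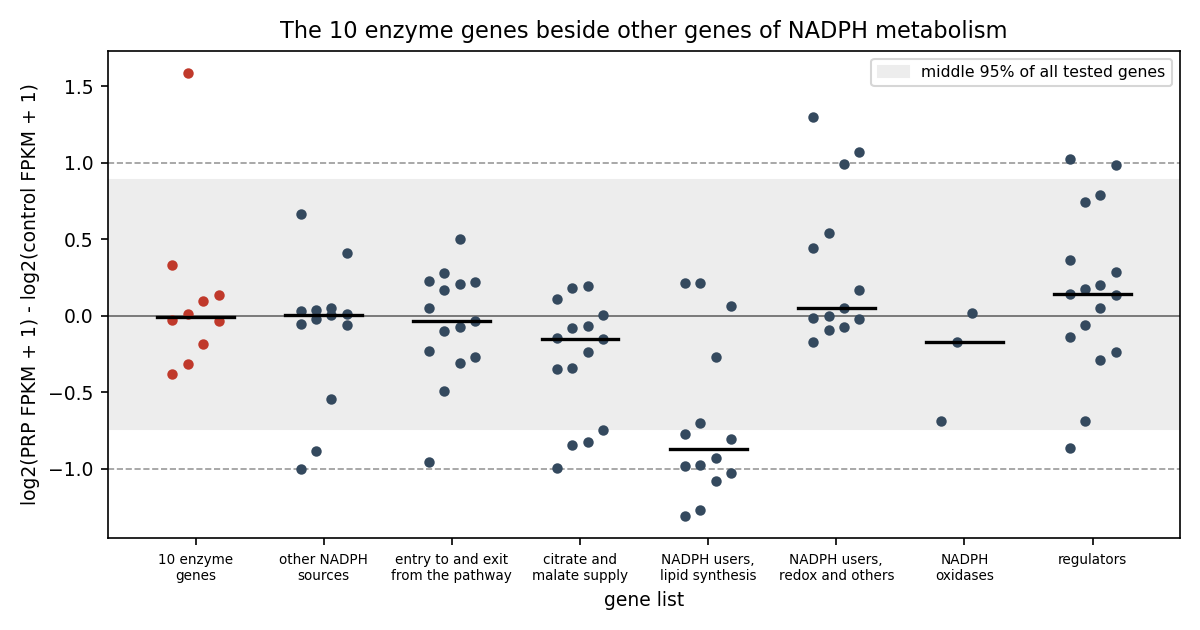
Log2 fold change on the log2(FPKM + 1) scale of the 10 enzyme genes and of the genes compared in 7 further lists, with 1 point per gene, black bars for medians, a grey band for the middle 95% of all 13401 genes (-0.74 to 0.89) and dashed lines at 2-fold. Taldo1 (1.59) is the highest point of all lists, and the enzymes of lipid synthesis have the lowest median (-0.87).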

How the data were processed

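Per the labels and the study's methods, RNA was extracted with TRIzol, libraries were made with a stranded mRNA kit, reads were trimmed with fastp 0.23.4, aligned to mm10 with STAR 2.5.3a and counted over genes by featureCounts. FPKM were computed and deposited by the authors. Their annotation release and strand setting are not given in the sources used here.

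Gene identifiers were matched to GENCODE M21 (GRCm38), where 93.7% of 44291 genes had an entry. With M21 exon lengths, 93.8% of 28160 genes above 0 gave whole reads for both libraries, to 0.001 of a read, with totals of 40120843 and 34139741. Even read numbers made up 79.3% and 80.3% of genes with 1 to 8 reads, as when both mates of a pair are counted, so intervals used reads divided by 2. They are exact Clopper-Pearson binomial intervals (95%) of the PRP share, turned into ratios, and exact Poisson intervals for levels. They cover counting error only. No test was run, since each group has 1 library. Genes were compared from a mean of 1 FPKM upwards, with a pseudocount of 1. Copies were sought with BLAST 2.17.0 among M21 transcripts, at 90% identity over 300 bases or more. Promoters are RefSeq windows on GRCm38.p6.

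The members and gene lists were chosen with earlier results of these data known. Beside the members, genes past 2-fold are named from each list, at most 4, or else its highest and lowest gene. The values of 1 such gene are not reported here. Genes past 2-fold by the plain FPKM ratio only, regulators past 1.5-fold only, and the endothelial, macrophage and myogenic markers named were added after their values were seen. Other genes named share reads or sequence with a member. Myf5, a listed myogenic marker, was not found under that name and so has no value here. Alternatives were other pseudocounts, filters, scalings and thresholds, and undivided reads. Python 3.11.15, NumPy 2.4.6, pandas 2.3.3, SciPy 1.17.1 and matplotlib 3.10.9 were used, and the procedures were tested on simulated data.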

Additional observations from a re-analysis of the deposited data

How the results depend on the processing

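No paired analysis was possible because there is 1 library per group, and no library could be left out. Taldo1 was the only enzyme gene past 2-fold under every pseudocount, filter and scaling tried, with a log2 fold change from 1.41 (pseudocount of 5) to 1.64 (pseudocount of 0.1 or none), and 0 of the 10 passed a 4-fold threshold. The other 9 kept their direction, except Tkt, which changed sign in 3 of 11 alternatives. From a mean of 5 FPKM upwards Pgls, Rpia, Rpe and Nnt were not compared. Chosen after seeing the data were the omission of the pseudocount, a rescaling to the mean sum of both libraries, the shorter Nnt entry and the removal of genes with 10% or more of their exons shared, which left 6 of the 10 genes with Taldo1 among them. For the 10 genes undivided reads called as many ratios above and below 1, and rescaling kept the sums by role on their side of 1.

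Over all genes the numbers at least 2-fold higher and lower were 507 and 289 with no pseudocount, 471 and 268 with a pseudocount of 0.1, 84 and 29 with a pseudocount of 5, and 154 and 56 from a mean of 5 FPKM upwards, against 268 and 111. Rescaling to a common sum of 1000000 gave 380 and 216, but it also raised all values and so lowered the weight of the pseudocount. Rescaling to the mean sum of both libraries, which keeps that weight, gave 260 and 116. The 1.5-fold threshold gave 824 and 612, and the 4-fold threshold 23 and 3. In the 7 other lists together, 3 higher and 5 lower genes became 6 and 12 with a pseudocount of 0.1 or none, 1 and 1 with a pseudocount of 5, 8 and 20 at 1.5-fold and 0 and 0 at 4-fold. These lists held 11 lower genes at a sum of 1000000, 6 at the mean sum, and 8 when the sum left out mitochondrial and top genes.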
